A study of Mus musculus with 5 samples.

Results

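The step from D5 to D7 of wound repair was examined in back skin of 2-year-old mice. A miRNA was included when the mean scanned intensity of its 2 spots, on the D5 array, the D7 array or both, exceeded 2 times the 95th percentile of that array's empty spots. This brightness rule kept 326 of the 1900 mouse miRNAs on the array. Of these, 266 were bright on both arrays, 36 at D7 only and 24 at D5 only. The wounds were 3 mm full-thickness punch biopsies made in telogen, the resting stage of the hair cycle, in female mice, and the tissue was snap-frozen at D5 or D7. Total RNA of each wound stage was hybridised to 1 single-colour (Cy3) array. The labels give neither the strain nor the number of animals behind a sample, so whether RNA was pooled is not known. The other 3 of the 5 arrays hold unwounded skin (D0) and D3 wounds of 2-year-old mice and unwounded skin of 8-week-old mice, and they entered the normalization. There are no replicates, so no test was possible, and the only error that could be measured is the spread between the 2 repeat spots of a miRNA.

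MicroRNAs are short RNAs that guide Argonaute proteins to messenger RNAs, mainly through the seed, a stretch near their 5' end, and lower the output of the messages they pair with. Skin repair passes from inflammation through re-epithelialisation and growth of new tissue to remodelling of the matrix, and miRNAs of keratinocytes, leukocytes, fibroblasts, vessels and muscle are all present in a wound sample. Both strands of a miRNA precursor, the 5p and the 3p arm, can be loaded, but most often one of them dominates.

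The sequences below are those on which the comparison turns, as the array files give them, written 5' to 3' with the seed (bases 2 to 8) in capitals. The first set holds miRNAs among the highest D7/D5 ratios, and their seeds are all different.
miR-133b-5p: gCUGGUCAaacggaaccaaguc
miR-7239-3p: uGGCUCUGucaggcagguag
miR-7028-5p: uGGGCUGAggcuugggucaggag
miR-7081-5p: aGAGGAGGgugcucggccggggauua
miR-199b-5p: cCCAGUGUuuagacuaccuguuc
miR-19b-3p: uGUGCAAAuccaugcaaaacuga
The second set holds miRNAs among the lowest ratios, and is shown because most of these are built mainly of G and C.
miR-2861: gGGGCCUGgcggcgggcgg
miR-5126: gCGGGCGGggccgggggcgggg
miR-762: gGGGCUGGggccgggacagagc
miR-665-3p: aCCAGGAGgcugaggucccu
miR-92a-3p: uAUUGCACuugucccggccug
The third set holds the 5 members of the epithelial miR-200 family and the miR-29 family, shown because members that share a seed had different ratios.
miR-200a-3p: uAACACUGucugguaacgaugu
miR-141-3p: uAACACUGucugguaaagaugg
miR-200b-3p: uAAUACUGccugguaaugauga
miR-200c-3p: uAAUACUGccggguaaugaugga
miR-429-3p: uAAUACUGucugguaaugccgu
miR-29a-3p: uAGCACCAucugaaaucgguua
miR-29b-3p: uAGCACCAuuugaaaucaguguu
miR-29c-3p: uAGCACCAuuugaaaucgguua

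On these arrays the scanned intensity is in arbitrary units, and its median over the 1900 miRNAs was 62.5 at D5 and 110 at D7. The mean of the empty spots was 57.4 at D5 and 85.8 at D7, so the brightness level lay at 122 and 198. As scanned, 296 of the 326 bright miRNAs were higher at D7, with a median D7/D5 ratio of 1.61. Control RNAs did not follow this shift, since the 11 spike calibration controls had a mean D7/D5 ratio of 0.828 (0.694 to 0.985) and the 5 probes for 5S ribosomal RNA a mean of 0.773. The ratios below were taken after quantile normalization, which gives all arrays the same distribution of intensities and so removes a shift shared by most miRNAs. The median log2 D7/D5 ratio of the bright miRNAs was then -0.11 (a ratio of 0.926), against 0.56 without normalization and 0.86 after scaling to the spike controls. Ratios under 1 are therefore levels relative to the other miRNAs. Of the 182 miRNAs with a ratio below 1, 15 were below 1 under all 8 other normalizations tried, whereas 123 of the 142 with a ratio above 1 stayed above 1 under all of them. Several of these normalizations raise most ratios, as the medians above show, so the choice of normalizations favours ratios above 1 in these counts.

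Skin markers were bright on both arrays and markers of other organs were not. The keratinocyte miRNAs miR-203-3p (3421 at D5 and 8761 at D7 as scanned) and miR-205-5p (11616 and 13388) were bright on both arrays. The brain miRNAs miR-124-3p (63.5 and 96.3) and miR-9-5p (56.3 and 106) and the liver miRNA miR-122-5p (50.3 and 105) were below the brightness level on both. Skeletal muscle and erythroid miRNAs were also bright, as described further on. In such bulk samples, fewer cells of a type and less of a miRNA per cell cannot be told apart.

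At D7, 30 miRNAs were at least 2-fold higher than at D5 (9.2% of the 326) and 19 were at least 2-fold lower (5.83%). The ratios ran from 0.298 to 35.3, and the middle 50% of them from 0.708 to 1.38. Of the 30 higher miRNAs, 30 lay above 1 on both spots, 20 passed 2-fold on each spot taken alone, and 30 passed 2-fold in the authors' processed values. Of the 19 lower miRNAs, 19 lay below 1 on both spots, 11 passed 2-fold on each spot, 16 passed it in the authors' values, and 12 were below 1 under all 8 other normalizations. The log2 ratios from the first and the second spots correlated with r = 0.883 over the 326 miRNAs, and those from the scanner and the authors' values with r = 0.947. These correlations are across miRNAs on the same pair of arrays, and miRNAs are not independent replicates. The 30 and the 19 were chosen by the mean of the same 2 spots, and the authors' values come from the same arrays. Their agreement on each spot and in the authors' values was therefore favoured by the choice. The SD of a log2 ratio from 2 repeat spots was 0.213. Just inside the brightness rule stood miR-7069-5p (122.5 at D5 and 189 at D7) and miR-669a-3-3p (124 and 151.98), and just outside it miR-485-3p (121.75 and 160) and miR-3110-3p (121.8 and 150).

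**Figure D1:**
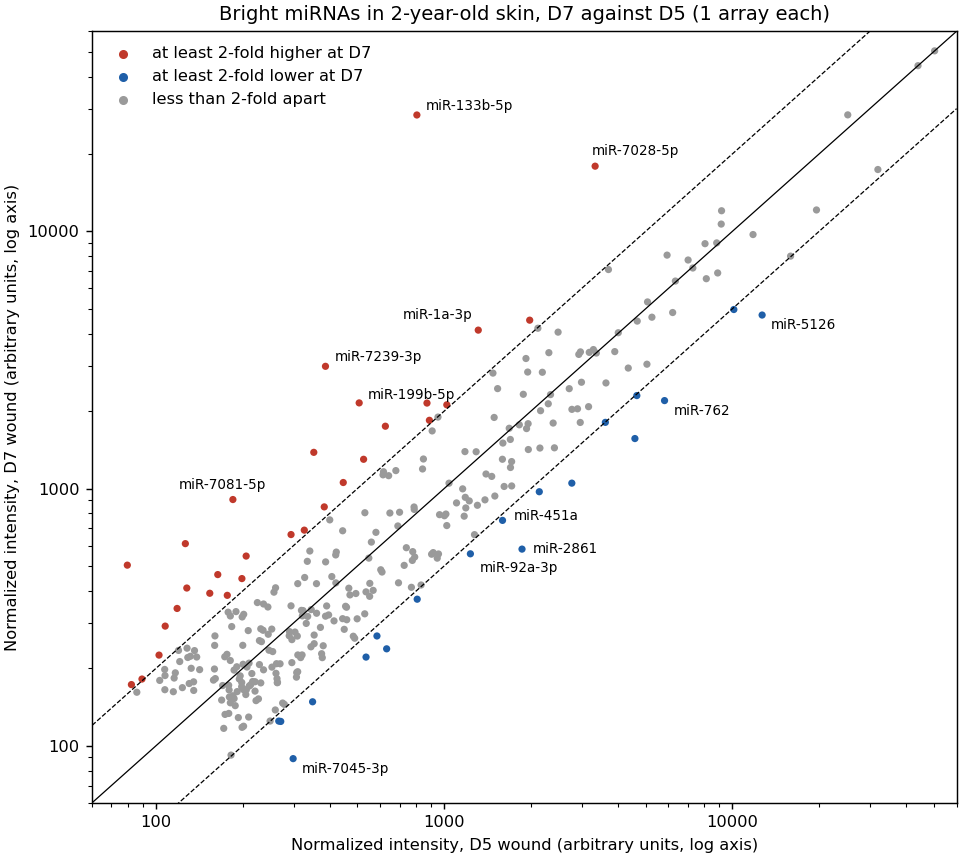
Normalized intensity of each of the 326 bright miRNAs at D7 (vertical) against D5 (horizontal), both in arbitrary units on log axes, with 1 array for each stage. Points are means of 2 spots, the solid line marks equal levels and the dashed lines 2-fold differences, and miR-133b-5p stands furthest from the line with a ratio of 35.3.

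The highest ratio was that of miR-133b-5p, the arm of the muscle precursor mir-133b that is usually the minor one. Its 2 spots scanned at 657 and 413 at D5 and at 28079.5 and 24356 at D7. The normalized D7/D5 ratio was 35.3, with 30.4 and 40.9 from the single spots, and 26.6 to 63.98 under the 8 other normalizations. The major arm of the same precursor, miR-133b-3p, scanned at 2985 and 2549 at D5 and at 5345 and 4216 at D7, and its ratio was 0.958 (0.914 to 2.21 under the other normalizations). In the unwounded skin of 8-week-old mice miR-133b-5p scanned at 36275, and at D0 and D3 of 2-year-old skin at 1983 and 3572. The D7 array thus lay nearest to the array of young skin for this arm, while the other arm gave no such step.

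A group of less studied miRNAs followed. The spots of miR-7239-3p scanned at 292 and 259 at D5 and at 2389 and 4436 at D7, a ratio of 7.71 (5.21 and 11.4 from the single spots). For miR-7081-5p, whose hairpin lies within Dnmt1, they scanned at 147 and 118 at D5 and at 936 and 1173 at D7, a ratio of 4.90. For miR-7028-5p they scanned at 2282 and 1618 at D5 and at 20145 and 20618 at D7, a ratio of 5.37. This miRNA was low at D5 rather than high at D7, since it scanned at 17885 at D0, 24661 at D3 and 46862 in young skin. The spots of miR-6238 scanned at 280 and 219 at D5 and at 1554 and 1721 at D7, a ratio of 3.92. miR-668-3p, from the imprinted Dlk1-Dio3 locus, had a ratio of 2.80, and miR-6965-3p had 2.47. On the array of young skin all 6 of the group scanned between 2589 and 46862, above each array of 2-year-old skin, and whether the RNA or the array sets this was not tested.

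Among miRNAs with known roles and bright on both arrays, miR-199b-5p had the highest ratio after miR-133b-5p. It is made in fibroblasts and other mesenchymal cells, and its spots scanned at 324 and 391 at D5 and at 2176 and 2537 at D7, a ratio of 4.25 (4.57 and 3.95). Its D0 and D3 scans of 363 and 309 were close to that at D5, so D7 stood apart from the other 3 arrays of 2-year-old skin. miR-1a-3p, the most abundant miRNA of striated muscle, scanned at 1013 and 686 at D5 and at 3587 and 4952 at D7, a ratio of 3.15. miR-19b-3p, a member of the miR-17-92 cluster, scanned at 136 and 153 at D5 and at 613 and 694 at D7, a ratio of 2.66 (2.65 and 2.66 from the single spots). miR-142a-3p, a miRNA of all blood-derived cells, was not bright at D5 (82.3 and 91.5) and scanned at 414 and 402 at D7, a ratio of 2.89. Other miRNAs past 2-fold and bright on both arrays included miR-3962 (2.25), miR-335-5p from within Mest (2.25), miR-148a-3p (2.21), miR-10b-5p (2.07) and miR-100-5p (2.07). Of the 30, 10 were bright at D7 only, miR-142a-3p among them, with ratios from 2.03 for miR-6947-3p to 6.34 for miR-363-5p, and for these the size of the ratio is the least certain. The authors' values gave 59.6 for miR-363-5p and 13.3 for miR-196a-5p (2.10 here), because these miRNAs were close to background at D5.

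The lowest ratios among miRNAs bright on both arrays were those of GC-rich miRNAs. miR-2861, described in osteoblast differentiation, scanned at 1100 and 1264 at D5 and at 688 and 687 at D7, a ratio of 0.312 (0.330 and 0.295 from the single spots, 0.300 to 0.729 under the 8 other normalizations). For miR-5126, all of whose bases are G or C, the spots went from 7631 and 7319 to 4200 and 6080, a ratio of 0.373. These miRNAs were thus lower at D7 as scanned, although most bright miRNAs were higher. miR-665-3p went from 494 and 357 to 283 and 297 (0.377), and miR-762 from 3523 and 3093 to 2382 and 2473 (0.378). At D3 each of these 4 scanned higher than at D5, with 2516 for miR-2861, 11874 for miR-5126, 967 for miR-665-3p and 6876 for miR-762, and at D0 each scanned lower than at D5. For miR-711, whose hairpin lies within the span of the type VII collagen gene Col7a1, the means were 98.2 at D0, 1081 at D3, 190 at D5 and 161 at D7, with a D7/D5 ratio of 0.468.

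Other miRNAs among the 10 lowest ratios of those bright on both arrays were miR-6965-5p (0.378), miR-744-5p (0.413), miR-423-5p (0.424), miR-92a-3p (0.452) and miR-5121 (0.455). The spots of miR-423-5p disagreed, at 292 and 121 at D7, with ratios of 0.701 and 0.257. miR-92a-3p, which restrains the growth of new vessels, scanned at 723 and 801 at D5 and at 584 and 740 at D7, and its ratio went above 1 under 2 normalizations (1.02 after scaling to the spike controls and 1.07 after scaling to 5S). The same held for miR-5121 (1.02 and 1.07) and for the red blood cell miRNA miR-451a (0.472, against 1.08 and 1.14). The lowest ratio of all, 0.298, was that of miR-7045-3p, which was bright at D5 only (205 and 216, against 121 and 118 at D7).

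The order of the 4 arrays of 2-year-old skin was read from the normalized levels. D7 was the highest of the 4 for 25 of the 30 higher miRNAs, against 82 of all 326, and D5 was the lowest for 16 of the 30, against 41 of 326. Of the 19 lower miRNAs, 8 were highest at D3 and 7 at D5, against 75 and 73 of all 326. D7 was the lowest for 12 of the 19, against 70 of 326. The choice of these miRNAs by their D7/D5 ratio favours such an order, so it is given as a description only.

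**Figure D2:**
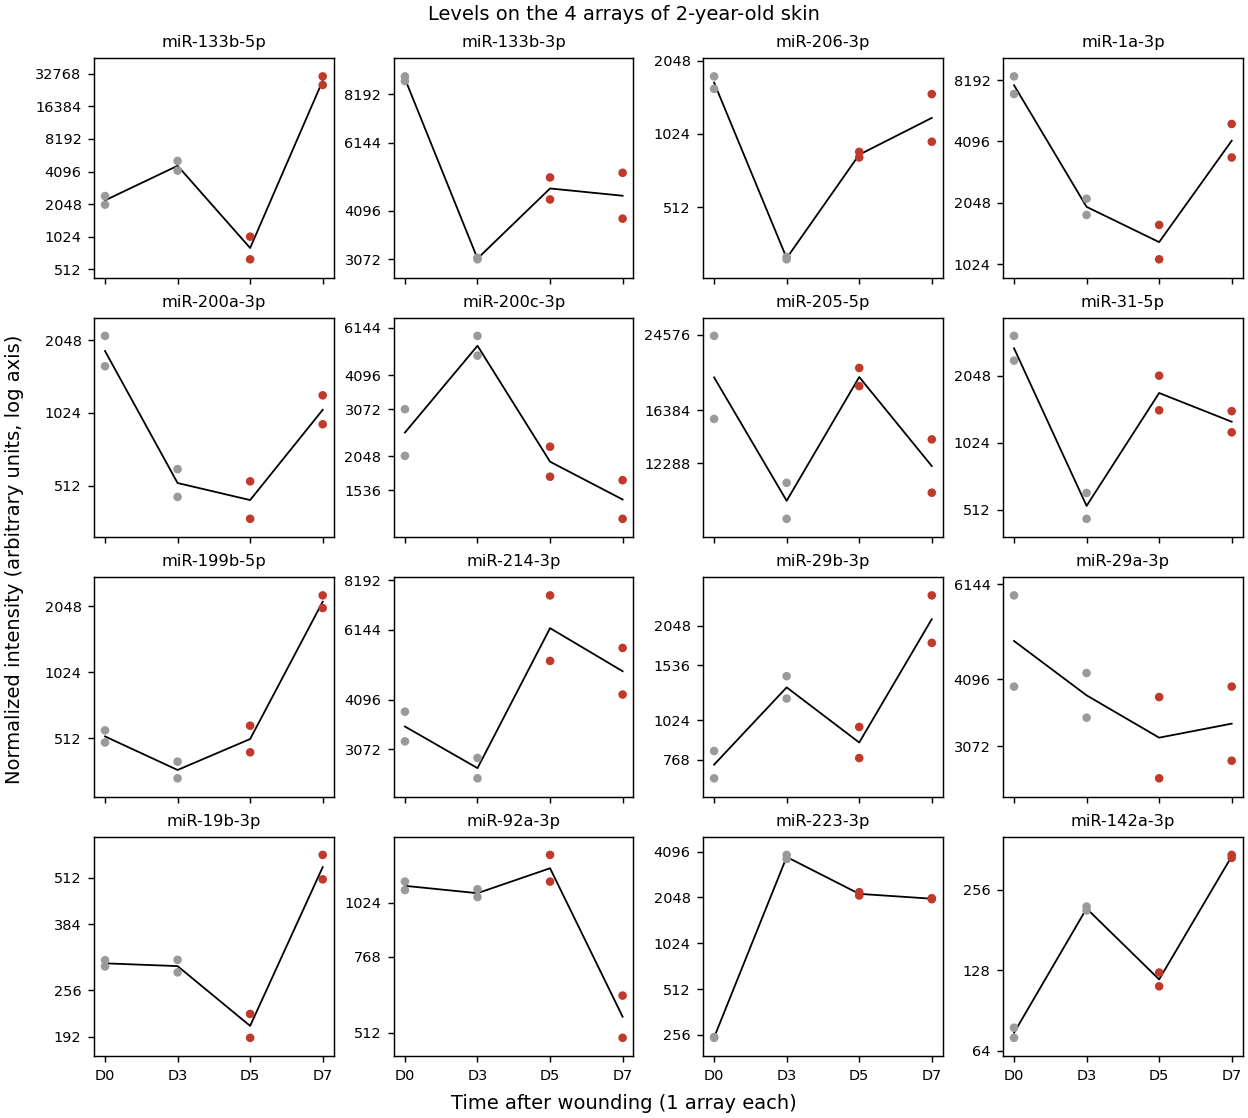
Normalized intensity (arbitrary units, log axes that differ between panels) of 16 miRNAs at D0, D3, D5 and D7 in 2-year-old skin, 1 array for each. Points are the 2 spots, red for D5 and D7, and lines join their means. miR-133b-5p and miR-199b-5p were highest at D7, whereas miR-223-3p peaked at D3 and differed little between D5 and D7.

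The miRNAs were then grouped in 22 lists by cell type, family or gene cluster. Of 169 entries, 167 matched a miRNA on the array and 128 were bright. Over all 326 bright miRNAs 142 had ratios above 1, and the counts of members above 1 given below stand beside this share. The brightness rule favours ratios above 1 for members bright at D7 only, and below 1 for those bright at D5 only. The median D7/D5 ratio was above 1 in 16 lists and below 1 in 6, beside a median of 0.926 over all bright miRNAs. It stayed above 1 under all 8 other normalizations in 15 of the lists, and stayed below 1 under all of them in 0. Of the 51 listed miRNAs with a ratio below 1, 50 went above 1 under at least 1 of the other normalizations, and the exception was miR-300-3p. Against the median of all bright miRNAs, 16 lists lay above with quantile normalization and 17 without normalization, of which 16 were above in both. The list that changed side was that of vascular and smooth muscle miRNAs.

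The miR-29 list had the highest median, followed by the miR-10 list (1.98) and the fibroblast list of miR-199 and miR-214. All 3 bright members of the miR-29 family, which represses collagens and other matrix genes, had ratios above 1, with a median of 2.18 (1.85 to 4.18 under the other normalizations). The spots of miR-29b-3p went from 632 and 496 to 2032 and 2753, a ratio of 2.47, and miR-29c-3p had 2.18. miR-29a-3p scanned at 2135 and 1566 at D5 and at 3085 and 4293 at D7, and its ratio of 1.06 came from spots on either side of 1 (0.761 and 1.48). Of the 5 bright miRNAs of the miR-199 and miR-214 group, 4 had ratios above 1, with a median of 1.91 (1.84 to 4.40). They were miR-199b-5p (4.25), miR-199a-5p (2.28), miR-199a-3p (1.91) and miR-214-5p (1.23). miR-214-3p scanned at 4258 and 3055 at D5 and at 5639 and 4448 at D7, and had a ratio of 0.779 (0.753 to 1.79 under the other normalizations). It is made from the same long transcript Dnm3os as the copy of miR-199a on chromosome 1. miR-199a has another copy on chromosome 9 within Dnm2.

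**Figure D3:**
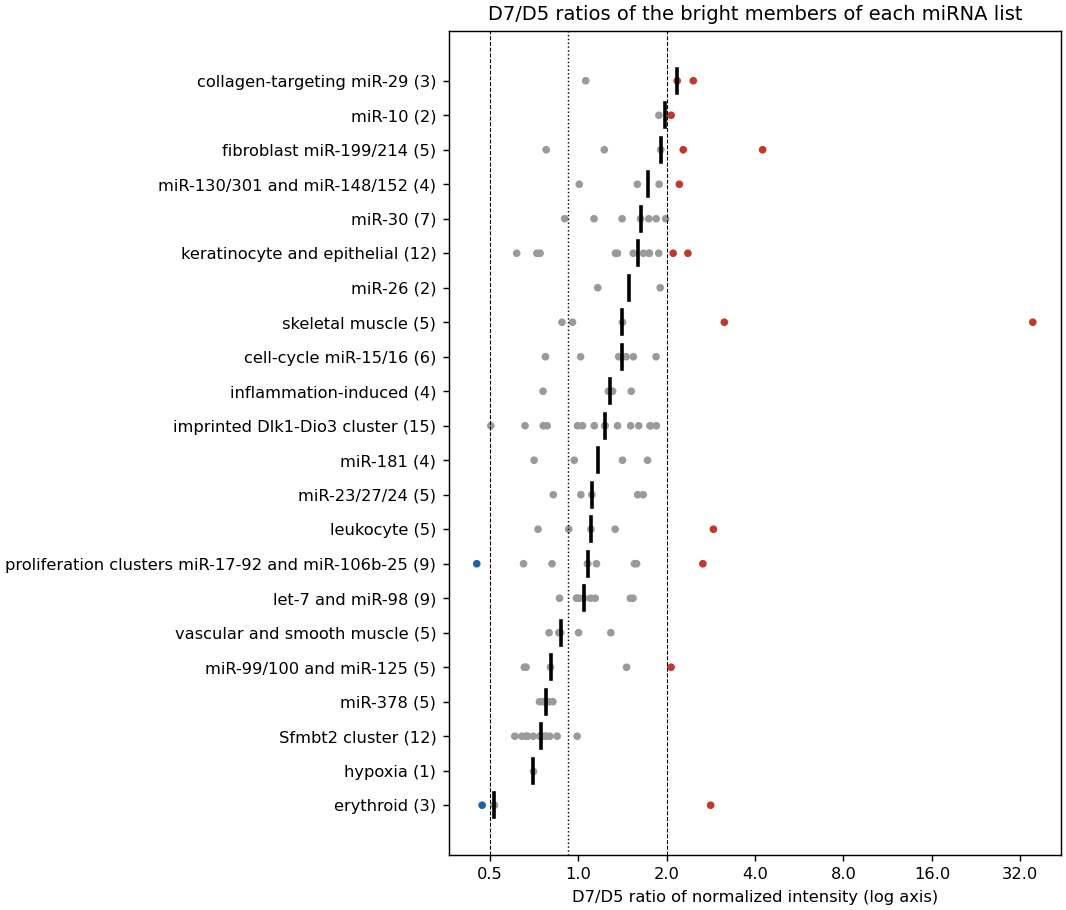
D7/D5 ratio of normalized intensity (log axis) of the bright members of each of the 22 lists, with the number of bright members in brackets. Each point is a miRNA, red at 2-fold higher or more and blue at 2-fold lower or less, black bars are list medians, dashed lines mark 2-fold and the dotted line the median of all bright miRNAs. The miR-29 list had the highest median, 2.18, and the erythroid list the lowest, 0.519.

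Of the 13 keratinocyte and epithelial miRNAs 12 were bright, and 9 had ratios above 1, with a median of 1.60 (1.38 to 3.12). Among these 9, miR-141-3p, miR-96-5p and miR-31-3p were bright at D7 only, which raises both the count and the median. The miR-200 family keeps cells epithelial by repressing Zeb1 and Zeb2. miR-200a-3p scanned at 362 and 263 at D5 and at 1030 and 1391 at D7, a ratio of 2.36, miR-429-3p had 2.11 and miR-200b-3p 1.75, and these 3 come from a single cluster (chr4:156053905-156055750, minus strand, GRCm38.p6). As scanned, the level of miR-200a-3p at D7 was between those of D3 (436) and D0 (1656). In the other cluster of the family (chr6:124717914-124718390, minus strand), miR-141-3p, not bright at D5 (115 and 116), had 1.67, whereas miR-200c-3p scanned at 1363 and 1058 at D5 and at 1383 and 1974 at D7, a ratio of 0.724 (0.739 to 1.75). miR-200c-3p has the seed of miR-200b-3p and miR-429-3p, so the ratios within that seed ran from 0.724 to 2.11. miR-96-5p (1.88), miR-183-5p (1.54) and miR-182-5p (1.34), which share a cluster and are expressed in epithelia and sensory cells, lay above 1. miR-96-5p was not bright at D5 (75.1 and 57.5), and its ratio ran from 1.41 to 8.00 under the other normalizations. miR-203-3p, which drives keratinocyte differentiation by repressing p63, had 1.36, with spots of 3731 and 3111 at D5 and 7052 and 10471 at D7. miR-205-5p, which supports keratinocyte growth and migration, had 0.618 (0.585 to 1.48), with spots of 12697 and 10535 at D5 and 11139.5 and 15637 at D7. miR-31-5p, known for its rise in keratinocytes at the wound edge, had 0.743 (0.743 to 1.75), and the other arm miR-31-3p, not bright at D5, had 1.74.

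Skeletal muscle lies under the dermis of mouse back skin as the panniculus carnosus. Of the 10 muscle miRNAs 5 were bright, and their ratios spread more widely than those of any other list. This spread came from miR-133b-5p alone (35.3), and the others ran from 0.882 to 3.15. Beside miR-133b-5p and miR-1a-3p, miR-206-3p, which marks regenerating muscle, scanned at 541 and 518 at D5 and at 1088 and 1784 at D7, a ratio of 1.42 (1.42 to 3.31). miR-133b-3p (0.958) and miR-133a-3p (0.882) were below 1, and above 1 under some of the other normalizations (up to 2.21 and 2.07). miR-206-3p and both arms of miR-133b lie within 10 kb of each other (chr1:20679010-20682887, plus strand, GRCm38.p6), within the long noncoding gene Lincmd1. At D7 the levels of miR-1a-3p, miR-133a-3p, miR-133b-3p and miR-206-3p were all below their D0 levels (normalized 4130 against 7738, 4637 against 10119, 4477 against 8982 and 1191 against 1664). As scanned, miR-206-3p was not lower, at 1436 at D7 against 1405 at D0. miR-133b-5p was higher at D7 than at D0 (normalized 28349 against 2216).

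The 5 leukocyte miRNAs were bright, with a median of 1.11 (0.948 to 2.14). miR-223-3p, the miRNA of neutrophils and other myeloid cells, scanned at 1358 and 1319 at D5 and at 2187 and 2123 at D7, a ratio of 0.929 (0.908 to 2.06). miR-142a-3p had 2.89 and the other arm of its precursor, miR-142a-5p, 1.34, although the latter scanned at 268 and 281 at D5 and at 648 and 579 at D7. miR-155-5p, induced in activated macrophages and lymphocytes, had 1.11, and miR-150-5p of mature lymphocytes had 0.731. Without normalization all 5 had ratios above 1, from 1.27 for miR-150-5p to 4.09 for miR-142a-3p. With quantile normalization 4 of the 5 lay above the median of all bright miRNAs. Of these 4, miR-223-3p was only just above it (0.929 against 0.926), and miR-142a-3p was bright at D7 only. Of the inflammation-induced list 4 of 7 were bright. miR-146b-5p (1.52) and miR-146a-5p (1.27), which dampen signalling through Traf6 and Irak1, and miR-21a-5p (1.31), a miRNA of inflammation and fibrosis, had ratios above 1, and miR-132-3p had 0.760. miR-21a-5p scanned at 5409 and 5097 at D5 and at 13309.7 and 11692 at D7, and at 2057 at D0 and 10299.7 at D3, so its level at D7 was above that of unwounded skin.

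Of the 6 erythroid entries 3 were bright, with a median of 0.519 (0.489 to 1.14). miR-451a, which red blood cells hold in large amounts, scanned at 1324 and 733 at D5 and at 868 and 925 at D7, so that its 2 spots at D5 lay further apart than the scanned means of D5 and D7. miR-486a-5p had 0.519 and the other arm miR-486a-3p 2.83, and each was bright on 1 of the arrays only. In the vascular list the endothelial miR-126a-3p had 0.872, miR-221-3p 0.860, miR-222-3p 0.797 and the smooth muscle miRNAs miR-143-3p and miR-145a-5p 1.29 and 1.004, and all 5 were within 2-fold. miR-210-3p, the miRNA induced by hypoxia through HIF-1, scanned at 269 and 220 at D5 and at 326 and 259 at D7, a ratio of 0.703 (0.617 to 1.39).

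In the miR-17-92 and miR-106b-25 clusters, which promote cell proliferation, 9 of 11 were bright and 6 had ratios above 1, with a median of 1.08. Within the miR-17-92 cluster (chr14:115043671-115044506, plus strand) the 4 bright members ran from miR-19b-3p (2.66) through miR-17-5p (1.08) and miR-20a-5p (0.816) to miR-92a-3p (0.452), and both ends of this range passed 2-fold. miR-19b-3p and miR-92a-3p also have copies in the related cluster on chromosome X, where miR-20b-5p had 1.58 and miR-106a-5p 1.16. The 3 bright miRNAs with the miR-92 seed were miR-25-3p (1.08), miR-92b-3p (0.461, up to 1.04 under the other normalizations) and miR-92a-3p. The miR-15/16 family, which represses cyclins, had 5 of 6 above 1, from 0.775 for miR-16-5p to 1.84 for miR-15a-5p. The median GC content of these 6 was 41.9%.

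Some families had ratios within narrow bounds. The miR-378 family, whose main gene lies within Ppargc1b, had ratios between 0.739 and 0.821 for all 5 bright members, and above 1 for the median without normalization (1.38). The 12 bright miRNAs of a list drawn from the miR-466, miR-467 and miR-669 families, known from a cluster within the rodent gene Sfmbt2, had ratios between 0.609 and 0.993, with a median of 0.747 (0.690 to 1.56). The list does not hold every bright member of these families, and RefSeq places 1 of its miRNAs, miR-669n, on chromosome 3 within Slc30a7. Many members of the miR-378 and Sfmbt2 lists are close in sequence and can cross-hybridise, so they are not independent. The 9 members of the let-7 list, which restrain growth in differentiated tissue, ran from 0.865 for let-7i-5p to 1.54 for let-7e-5p, with a median of 1.05 (1.01 to 2.40). Of the 7 miR-30 entries 6 lay above 1, from miR-30d-5p (0.900) to miR-30b-5p (1.99). Among these 6, miR-30a-3p and miR-30e-3p were bright at D7 only. miR-10a-5p (1.88) and miR-10b-5p (2.07), which lie among the Hox genes, were both above 1, as were the 4 bright miRNAs of the list of miR-130, miR-301, miR-148 and miR-152 (1.01 to 2.21). miR-26a-5p and miR-26b-5p had 1.17 and 1.90. In the miR-99/100 and miR-125 list, miR-100-5p had 2.07 and miR-99a-5p 1.46, against 0.666 for miR-99b-5p and between 0.657 and 0.806 for the miR-125 members. The miR-181 members ran from 0.709 to 1.72 and the miR-23/27/24 members from 0.824 to 1.67. The highest of the miR-181 members, miR-181d-5p, was bright at D7 only. Of the 30 listed miRNAs of the imprinted Dlk1-Dio3 locus 15 were bright, 10 of them above 1, from 0.505 for miR-300-3p, whose D7 spots disagreed (201 and 67.4), to 1.85 for miR-376a-3p. Of those above 1, miR-376a-3p, miR-376c-3p, miR-341-3p, miR-409-3p and miR-337-5p were bright at D7 only. miR-300-3p was bright at D5 only, so the brightness rule favoured both ends of this range. This list also leaves out bright miRNAs of its locus, some of them past 2-fold. Among those left out were miR-3070-2-3p (3.21, not bright at D5), miR-668-3p (2.80) and miR-665-3p (0.377).

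Arms of the same precursor could be compared for 19 pairs with both arms bright and a hairpin in the RefSeq table. They differed by 1.57-fold in the median, and 7 pairs differed by at least 2-fold. Ratios also spread among all bright miRNAs, with lower and upper quartiles of 0.708 and 1.38. Pairs of unrelated bright miRNAs were not compared in this way, so whether arms of the same precursor differ more or less was not tested. The 7 pairs were the arms of miR-133b, miR-7028, miR-6965, miR-30c-1, miR-31, miR-7045 and miR-142a. Some of these arms were below the brightness level on 1 array, so the differences of their pairs are less certain. They were miR-7028-3p (159) and miR-7045-3p (119) at D7, and miR-31-3p (79.6) and miR-142a-3p (86.9) at D5. The partner of miR-30c-1-3p, miR-30c-5p, is also encoded by another hairpin, Mir30c-2. The arms of miR-486a, given with the erythroid miRNAs, were not among the pairs compared. For miR-7028 the 5p arm had 5.37 and the 3p arm 0.459, and for miR-6965 the 3p arm had 2.47 and the 5p arm 0.378. The arms of miR-7028 held 65.2% and 68.2% GC and those of miR-6965 63.6% and 58.3%.

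The D7/D5 ratio was lower for miRNAs with a higher GC content of the mature sequence. Over the 326 miRNAs the log2 ratio correlated with GC content with r = -0.355, against -0.362 without normalization and -0.345 in the authors' values, which is a description across miRNAs of the same pair of arrays. In 4 groups of about equal size by GC content the median ratio was 1.27 (27.3% to 41.7% GC), 1.06 (42.9% to 50%), 0.821 (52.2% to 61.9%) and 0.707 (62.5% to 100%). The group of lowest GC content held 14 miRNAs past 2-fold higher and 1 past 2-fold lower, and that of highest GC content 5 and 13. From lowest to highest GC content, 54 of 83, 48 of 84, 27 of 78 and 13 of 81 miRNAs had ratios above 1. Counts of list members above 1 are to be read beside these shares too. The median GC content was 44.5% for the 30 higher, 63.6% for the 19 lower and 50% for all bright miRNAs. Brightness showed no such order, with medians of 0.954, 0.910 and 0.915 in 3 groups of increasing level. Taken relative to the median of its own GC group, miR-199b-5p still stood at 4.01 and miR-133b-5p at 42.9, whereas miR-2861 moved to 0.441, miR-5126 to 0.527 and miR-762 to 0.534. By the same measure the list medians were 1.72 for miR-29, 1.51 for the miR-199 and miR-214 group, 1.29 for the epithelial miRNAs and 0.826 for let-7. The leukocyte list stood at 0.890 and the erythroid list at 0.734. The lowest by this measure was the Sfmbt2 list at 0.603, whose bright members had a median GC content of 37.2%. The group of highest GC content had median normalized levels of 347 at D0, 578 at D3, 346 at D5 and 318 at D7. In each other group D3 had the lowest median. The high D3 level of miR-2861, miR-5126, miR-665-3p and miR-762 was thus shared by their GC group. The part of base composition in the ratios was not tested further.

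**Figure D4:**
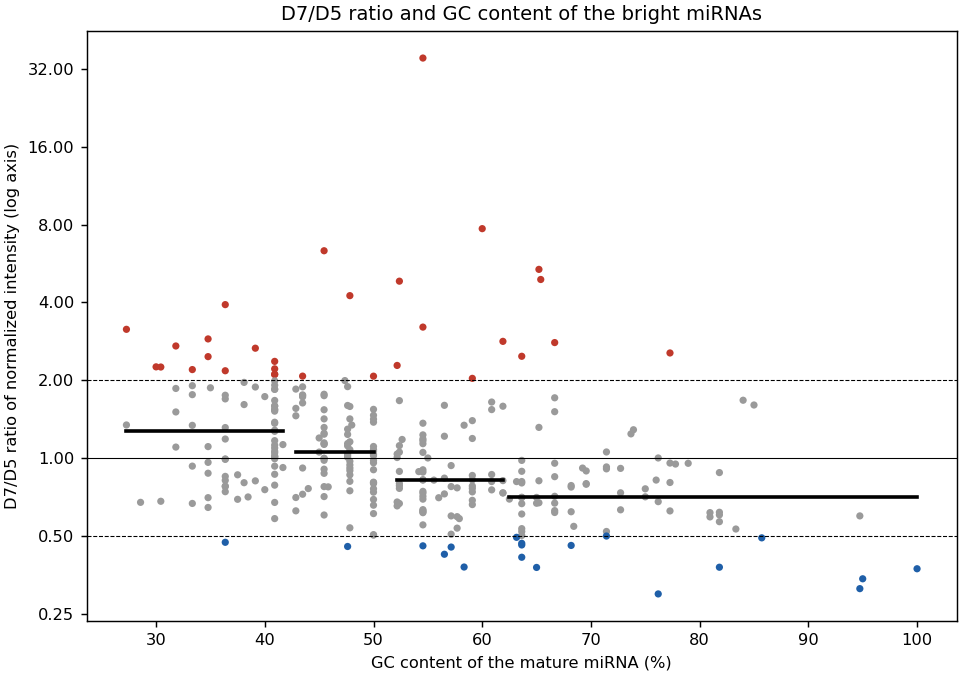
D7/D5 ratio of normalized intensity (log axis) of the 326 bright miRNAs against the GC content of the mature sequence in percent. Red points were at least 2-fold higher at D7 and blue points at least 2-fold lower, dashed lines mark 2-fold, and black bars give the median of each of 4 groups of GC content over its range, falling from 1.27 to 0.707.

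The size of each ratio depended on the normalization. Among the 10 highest ratios the lowest value under the 8 other normalizations was 2.35 for miR-6965-3p, and the highest was 63.98 for miR-133b-5p. Among the 10 lowest ratios the highest values lay between 0.729 for miR-2861 and 1.07 for miR-92a-3p.

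**Figure D5:**
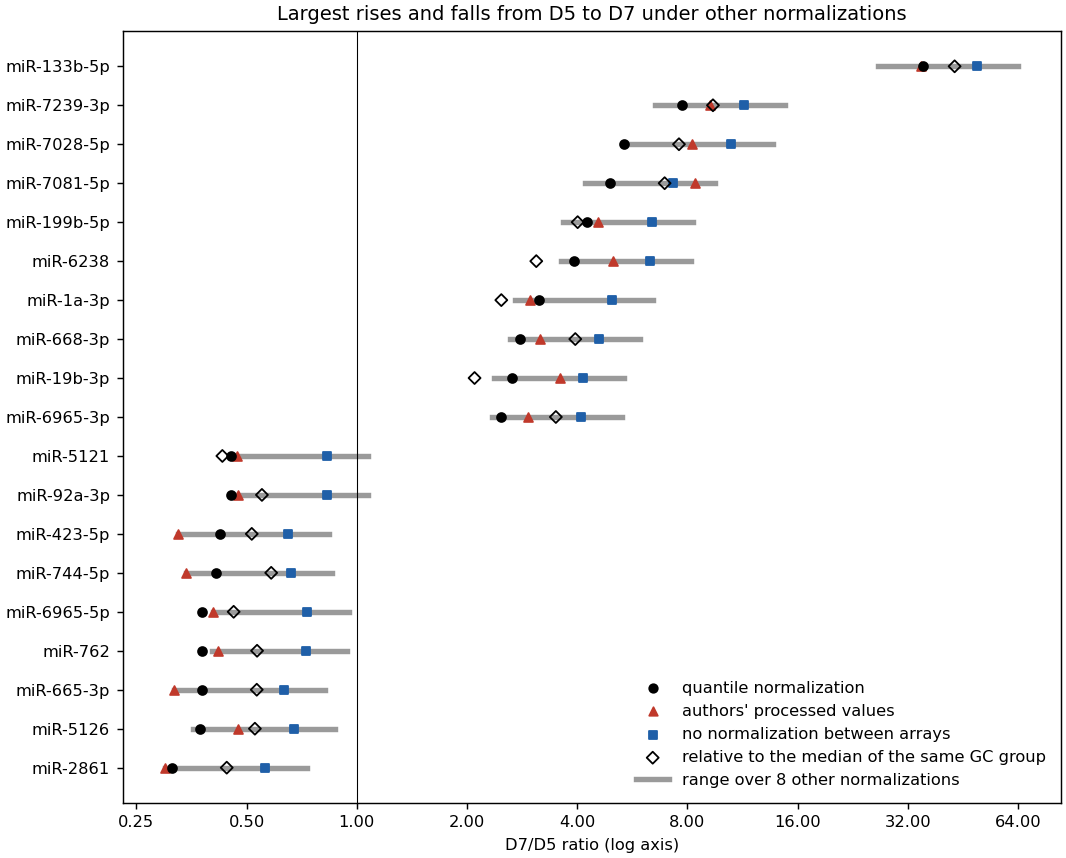
D7/D5 ratio (log axis) of the 10 highest and of 9 of the 10 lowest ratios among miRNAs bright on both arrays. Black circles are ratios after quantile normalization, triangles the authors' processed values, squares no normalization, diamonds values relative to the median of the same GC group, and grey bars the range over 8 other normalizations, which crosses 1 for miR-92a-3p and miR-5121.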

How the data were processed

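For each array the authors deposited the raw median intensity of every spot (linear scale) and a table of processed intensity for each miRNA. The method behind the processed values is not given in the sources used here, and their median was 7.01 at D5 and 8.085 at D7. The local background columns are empty, so normexp (limma 3.58.1, R 4.3.3, offset 50) was fitted on the spot intensities alone, although the design had foreseen none. Quantile normalization of the log2 values across the 5 arrays followed, and repeat spots were averaged, with Python 3.11.15, pandas 2.3.3 and numpy 2.4.6. Figures were drawn with matplotlib 3.10.9. Samples were assigned from their labels. With 1 array for each condition there is no test, and precision is limited by this number. Control probes were taken at the median of their spots, because 1 of 44 spike spots at D7 read 76.9 where the others of its probe read 24769 to 30321.

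Named miRNAs were the 10 highest and 10 lowest ratios among miRNAs bright on both arrays with both spots and the authors' values on the same side of 1, the members of the 22 lists, and the 2 nearest miRNAs on each side of the brightness level. The members and lists were chosen with earlier results of these data known. Other miRNAs past 2-fold were named after their values were seen. Positions and clusters (hairpins within 10 kb) come from RefSeq GRCm38.p6, since the array files name no build, and 269 of the 326 bright names matched it, 267 with the same sequence. The alternatives were 7 other normalizations and the authors' processed values (values below 1 set to 1), offsets of 16 and 100, no background correction, subtraction of the empty spots with a floor of 1, each spot alone, other brightness rules, and thresholds of 1.5-fold and 3-fold. Ratios were also centred on the median of the bright miRNAs. Centring within 4 groups of GC content, and centring on the median without normalization, were added after the data were seen. Of the 10 lowest ratios, 1 is not reported here. The ratio script was tested on simulated data.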

Additional observations from a re-analysis of the deposited data

How the results depend on the processing

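No paired analysis was possible because there is only 1 array at D5 and 1 at D7. The count of miRNAs at least 2-fold higher, 30, became 98 without normalization, 53 after scaling to the median of all miRNAs, 146 after scaling to the spike controls, 156 after scaling to 5S, 56 after subtraction of the empty spots and 59 in the authors' values. The count at least 2-fold lower, 19, became 1, 3, 0, 0 and 37 under the first 5 of these, 33 from the first spot alone and 9 within 4 groups of GC content. At 1.5-fold the counts were 75 and 60, and at 3-fold 10 and 2. The median log2 ratio of the bright miRNAs, -0.11, became 0.56 without normalization, 0.21 with the scaling to the median of all miRNAs, 0.86 with that to the spike controls and 0.93 with that to 5S. Under the spike and 5S scalings miR-92a-3p (1.02 and 1.07), miR-5121 (1.02 and 1.07) and miR-451a (1.08 and 1.14) went above 1. These scalings shift all ratios by a constant, which sets the counts. Of the other lower miRNAs past 2-fold, miR-92b-3p (up to 1.04), miR-2137 (1.14), miR-5112 (1.21) and miR-7082-5p (1.26) also went above 1 under at least 1 normalization, and none of the 30 higher ones went below 1 under the 8 other normalizations. Of 143 named or listed miRNAs, the ratio differed by less than the spread of repeat spots for 141 under cyclic loess, for 117 under scaling to the 75th percentile, for 95 in the authors' values and for 0 without normalization. Median ratios of some lists rest on members near the brightness level: for miRNAs above 1 time the empty-spot percentile the inflammation list had 0.955, and for those bright on both arrays the miR-181 list had 0.971. Most miRNA spots lay near the empty spots, and 1574 of the 1900 miRNAs were not bright on either array.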

Other observations

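Beyond the lists, several bright miRNAs at least 2-fold apart lie within genes. miR-139-5p, whose hairpin is within the span of Pde2a, scanned at 390 and 395 at D5 and at 362 and 289 at D7, a ratio of 0.457. miR-7082-5p, within Raver1, had 0.499 (up to 1.26 under the other normalizations), and miR-2137, within Zfp185, had 0.491 (up to 1.14) with spots of 5998 and 5534 at D5 and 5382 and 4836 at D7. miR-365-3p, with copies on chromosomes 11 and 16, was bright at D7 only (330 and 368) and had 2.71. Its neighbour on chromosome 16, miR-193b-3p, had 1.19. miR-101a-3p, which represses Ezh2, was also bright at D7 only, with spots of 293 and 254 and a ratio of 2.198.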
